A study of Arabidopsis thaliana with 12 samples.

Results

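The plastid-encoded genes are the genes carried on the chloroplast's own circular genome of 154478 bases, and they are described here in unopened flower buds of Arabidopsis thaliana, from plants at 22 °C and from plants heated for 6 h to 38 °C. They were taken by their ATCG gene identifiers. The table held 133 such rows, of which 8 were ribosomal RNA (rRNA) genes and were left out. Of the other 125, 111 reached an FPKM of 1 (fragments scaled to gene length and library depth) in at least 3 of the 12 libraries and are the members. The 14 that did not reach that limit were trnT, ccsA, the noncoding gene ArthCt112, both copies of ycf15, 1 of the rps12 and 1 of the ndhB rows, 3 trnL, 2 trnI and 2 trnN genes. The members make up 111 of the 20715 genes tested and of the 33610 genes counted. They fall into photosystem II (15 genes), photosystem I (5), the cytochrome b6f complex (6), ATP synthase (6), the NADH dehydrogenase-like complex NDH (11), rubisco (1), the plastid RNA polymerase (4), ribosomal proteins (25), transfer RNAs (tRNA, 28) and other functions (10). None of the members reached the limit in the libraries of a single group only, and 48 reached it in all 12 libraries. Of the members, 17 have an identical second copy in the inverted repeat and 10 overlap another gene, so that their reads could be split between rows.

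Wild type (WT) Columbia-0 was compared with bzip17, which in the same accession is the 1 T-DNA insertion line SALK_104326 in the gene of the membrane-anchored transcription factor bZIP17. Each of the 4 groups (WT and bzip17, at 22 °C and at 38 °C) had 3 biological replicates, and each replicate pooled the unopened buds of several plants. The study asked how bzip17 plants respond to heat at the reproductive stage.

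Plastid genes descend from a cyanobacterial genome and are mostly transcribed as long units that span several genes and are then cut into shorter RNAs. A bacterial-type RNA polymerase, whose core subunits are the products of rpoA, rpoB, rpoC1 and rpoC2, is directed to promoters by sigma factors made from nuclear genes. Phage-type polymerases, also nuclear-encoded, transcribe rpoB and other housekeeping genes. In contrast to cytosolic messengers, plastid RNAs that receive an adenine tail are marked for decay. The sources used here do not state how the libraries were selected, so the counts of plastid RNA may follow the selection as well as the amount of RNA. In bulk buds, fewer plastids and less RNA per plastid cannot be told apart.

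The plastid counts moved with the rRNA content of each library. The 15 rRNA loci took between 1.43 and 64.8% of the counts, and over 10% in 4 libraries, which are replicates 2 and 3 of WT at 22 °C, replicate 1 of WT at 38 °C and replicate 1 of bzip17 at 22 °C. The members took 0.0233, 0.0560 and 0.486% of the counts outside rRNA in the WT libraries at 22 °C, whose rRNA shares were 3.76, 15.1 and 64.8%. They took 0.215, 0.0528 and 0.0494% in WT at 38 °C, with rRNA shares of 19, 3.57 and 2.80%. In bzip17 at 22 °C they took 0.142, 0.0396 and 0.0168%, with rRNA shares of 20.7, 3.22 and 1.43%. In bzip17 at 38 °C they took 0.0431, 0.0465 and 0.0356%, with rRNA shares of 2.64, 3.47 and 2.90%. The spread was wide in the 3 groups that hold libraries over 10% rRNA and narrow in bzip17 at 38 °C, and the temperatures overlapped in each genotype. Counting error was small beside this: the lowest share had a 95% Wilson interval of 0.0165 to 0.0172%, which reflects counting alone. Over the 12 libraries Pearson's r of the plastid and rRNA shares was 0.974 and Spearman's rho 0.769, given as a description because both shares come from the same libraries and depth. Without the 2 libraries farthest from the median, r was 0.820 and rho 0.612, and as deviations from the group means on the log2 scale r was 0.970 (12 libraries).

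**Figure D1:**
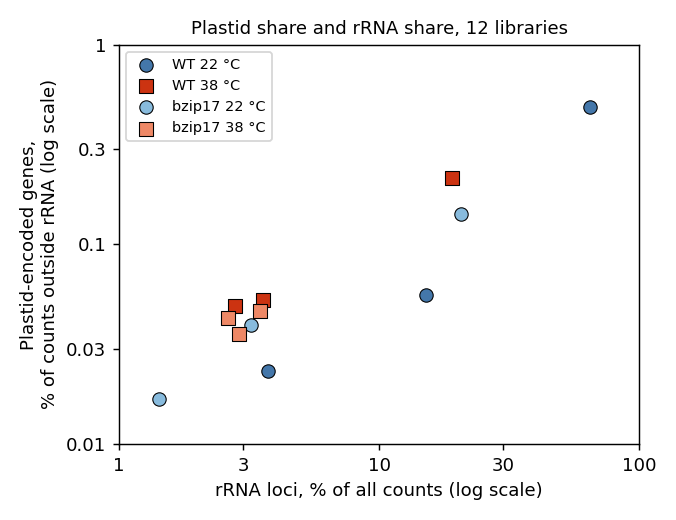
Share of plastid-encoded genes among counts outside rRNA (y, %, log scale) against the share of rRNA loci among all counts (x, %, log scale), 1 point per library, coloured by group. Replicate 3 of WT at 22 °C sits at 64.8% rRNA and 0.486% plastid counts, and the 3 libraries of bzip17 at 38 °C lie together between 0.0356 and 0.0465%.

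This co-variation was carried unequally by the members. Replicate 3 of WT at 22 °C held the highest value of 91 of the 111 members. Against replicate 1 of the same group, its scaled value was 14.1 times higher at the median of the 102 members above 0 in replicate 1, while the median over all tested genes was 0.988 times. The median ratio was 24.5 for photosystem II and 24.5 for ATP synthase, 55.2 for rbcL, 11.5 for ribosomal proteins, 10.6 for the polymerase and 5.05 for tRNA genes. All 5 floral bud markers were detected in each library, but their summed level varied, from 242 to 846 CPM (counts scaled to library depth) outside rRNA. It was 343 to 554 CPM in WT at 22 °C, 389 to 764 in WT at 38 °C and 242 to 785 in bzip17 at 22 °C. In bzip17 at 38 °C it was 666 to 846 CPM, above all WT libraries at 22 °C. The summed level of 10 nuclear genes of green tissue ran from 9350 to 18000 CPM outside rRNA. That sum overlapped between the temperatures of each genotype, but WT at 22 °C (9350 to 11900 CPM) lay below both bzip17 groups. Fits that take the rRNA share into account are given beside the plastid results.

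Under heat, 4 of the members that changed lie next to each other. A run of genes at the start of the large single-copy region rose in both genotypes: psbI, trnS, trnG and trnR. rpoB, the first gene of the polymerase operon, fell in both, and psbM rose in bzip17. In WT 4 members rose and 1 fell of 111, whereas 12.8% of all 20715 genes were called (edgeR's quasi-likelihood test, Benjamini-Hochberg adjusted p under 0.05 and more than 2-fold in either direction). In bzip17 5 members rose and 1 fell, against 12.5% of all genes called. With the rRNA share as a covariate this turned round in both genotypes, with 23 members (20.7%) called against 11.4% of all genes in WT, and 17 members (15.3%) against 12.3% in bzip17.

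**Figure D2:**
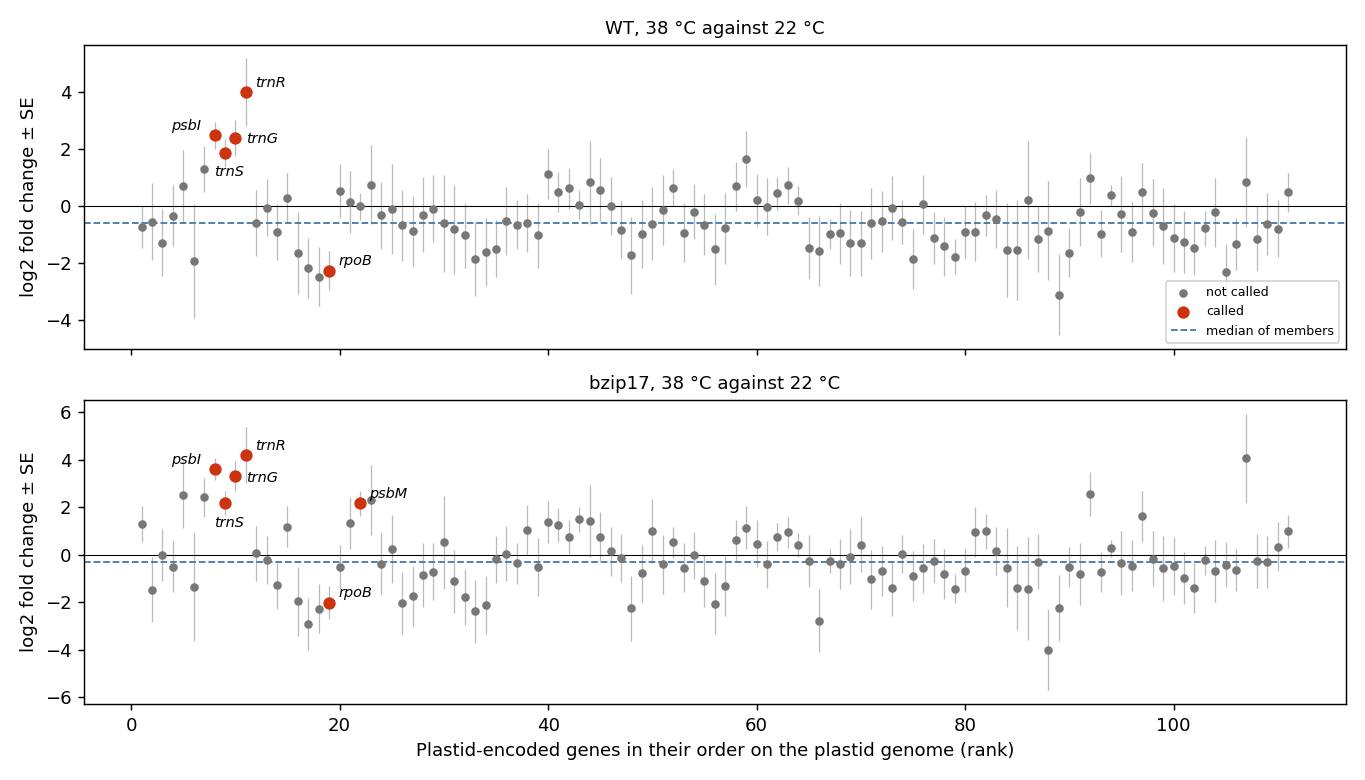
Fitted log2 fold change of 38 °C against 22 °C (y, ± SE, 3 libraries a group) for the 111 members in their order along the plastid genome (x, rank), in WT above and bzip17 below. Called genes are red and labelled, and the dashed line is the members' median (-0.62 in WT, -0.30 in bzip17); the called genes other than psbM sit among the first 20 ranks.

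psbK and psbI encode small subunits of photosystem II, and the tRNA genes that follow them carry serine, glycine and arginine. All 5 are annotated on the plus strand of the plastid sequence of TAIR10: psbK at 7017 to 7202, psbI at 7583 to 7693, trnS (ATCG00090) at 7785 to 7872, trnG (ATCG00100) at 8646 to 9431 and trnR (ATCG00110) at 9590 to 9661. The row of trnG includes an intron, because RefSeq places its exons at 8646 to 8668 and 9383 to 9431. Among the called genes, the shortest are shown here in full from the RefSeq plastid sequence of TAIR10.1. Capitals mark the start and stop codon of psbI and psbM, and in the tRNA genes the match to the T-arm consensus GTTCNANNC.
psbI: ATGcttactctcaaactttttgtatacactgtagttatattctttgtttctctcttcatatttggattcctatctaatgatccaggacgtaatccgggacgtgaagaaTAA
psbM: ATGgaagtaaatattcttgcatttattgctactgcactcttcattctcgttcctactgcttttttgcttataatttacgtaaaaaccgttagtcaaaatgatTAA
trnS (ATCG00090): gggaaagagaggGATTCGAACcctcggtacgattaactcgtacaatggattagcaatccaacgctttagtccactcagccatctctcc
trnR (ATCG00110): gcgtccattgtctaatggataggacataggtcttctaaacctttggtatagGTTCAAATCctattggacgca

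The T-arm consensus was searched on both strands of all 37 plastid tRNA genes, and 34 held it on their annotated strand. trnS (ATCG00090) was 1 of 2 genes that held it on the other strand only, the other being trnS (ATCG00290), and the capitals in its sequence are the reverse complement of the consensus. No strand protocol is stated, and reads from trnS and from an RNA that crosses it in the opposite direction cannot be told apart.

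psbI is a low-molecular-weight subunit of the photosystem II core. Its scaled level was 1.19, 1.51 and 5.26 CPM in WT at 22 °C. Heated WT had 14.4, 11.2 and 16.6 CPM. The bzip17 controls had 1.32, 1.08 and 1.37 CPM, and heated bzip17 had 17.5, 15.8 and 13.0 CPM. All heated libraries lay above all control libraries in each genotype. The fitted log2 change was 2.48 ± 0.46 (SE, n = 3) in WT, 5.56-fold (edgeR's quasi-likelihood test, adjusted p = 0.00295), and 3.62 ± 0.48 in bzip17, 12.3-fold (adjusted p = 0.00032).

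trnS (ATCG00090) stood at 3.69, 3.78 and 4.03 CPM in the WT controls and at 16.0, 9.48 and 16.2 CPM in heated WT. The bzip17 controls gave 6.32, 2.11 and 1.08 CPM, and heated bzip17 gave 16.1, 12.7 and 13.6 CPM. The groups did not overlap in either genotype, although replicate 3 of WT at 22 °C, which was highest for most members, was level with its group here. The log2 change was 1.86 ± 0.49 (SE, n = 3) in WT (edgeR's quasi-likelihood test, adjusted p = 0.0172) and 2.17 ± 0.50 in bzip17 (adjusted p = 0.00759). trnG (ATCG00100) had 0.409, 0.355 and 1.36 CPM in WT at 22 °C against 4.02, 2.35 and 4.03 CPM at 38 °C, and 0.565, 0.372 and 0.115 CPM against 3.64, 3.40 and 3.20 CPM in bzip17. Its log2 change was 2.38 ± 0.62 in WT (adjusted p = 0.0161) and 3.31 ± 0.64 in bzip17 (adjusted p = 0.00309), and the groups again did not overlap.

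trnR (ATCG00110) was close to the detection limit at 22 °C. It received 0, 12 and 0 counts in WT at 22 °C and 104, 73 and 77 counts at 38 °C. In bzip17 it received 5, 7 and 0 counts at 22 °C and 150, 114 and 73 at 38 °C. The zeros allow levels of up to 0.0471 and 0.195 CPM in replicates 1 and 3 of WT and 0.0433 CPM in replicate 3 of bzip17, at 3 counts a library. The fitted log2 change was 3.99 ± 1.19 (SE, n = 3) in WT (edgeR's quasi-likelihood test, adjusted p = 0.0285) and 4.21 ± 1.18 in bzip17 (adjusted p = 0.0211). With counts this low at 22 °C the fold depends on the prior count of the fit.

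psbK, the first gene of the run, had 1.07, 2.72 and 13.3 CPM in the WT controls and 16.8, 12.5 and 11.5 CPM in heated WT. In the bzip17 controls it had 3.93, 1.28 and 0.462 CPM, and in heated bzip17 11, 10.9 and 7.86 CPM. Only the WT groups overlapped, through replicate 3 at 22 °C. Its log2 change was 1.30 ± 0.81 in WT and 2.42 ± 0.84 in bzip17 (SE, n = 3), with adjusted p = 0.259 and 0.0518 in edgeR's quasi-likelihood test, so psbK was not called. It was called in both genotypes with the rRNA share as a covariate, at log2 changes of 3.04 and 3.31, and without the 4 libraries over 10% rRNA, at 3.49 and 3.55. WT at 22 °C then rests on 1 library.

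Read against the other plastid genes, the 5 neighbours from psbK to trnR took 3.29, 1.76 and 0.56% of the member counts in WT at 22 °C and 3.12, 8.16 and 12.1% at 38 °C. In bzip17 they took 0.94, 1.39 and 2.18% at 22 °C and 13.8, 11.4 and 12.9% at 38 °C. The bzip17 groups were apart. In WT the heated library of lowest share was replicate 1, the one with 19% rRNA, and it lay below replicate 1 at 22 °C. The mean difference over both genotypes was 8.55 percentage points, and 7.48 to 9.72 points when any 1 library was left out. This stretch was put together after its values were seen and carries no test.

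psbI was called in both genotypes in all 12 fits that left out 1 library. In bzip17 trnS and trnG were too, with adjusted p of at most 0.0286 and 0.0109, while trnR missed the threshold in 1 of the 12 (adjusted p = 0.0523). In WT trnS lost its call in 3 of the 12 (adjusted p up to 0.0583), trnG in 2 (up to 0.0662) and trnR in 4 (up to 0.0678). The fit without the 4 libraries over 10% rRNA leaves 1 WT library at 22 °C. Its log2 changes in WT were 3.54 for psbI, 1.80 for trnS and 2.96 for trnG. For trnR the value was 9.45, where that control library had 0 counts. In bzip17 the same fit gave 3.67 for psbI, 3.18 for trnS, 3.86 for trnG and 4.625 for trnR. Scaled to the total of the plastid members, no member was called in any comparison, where 0.367% of all genes were called under heat in WT and 1.05% in bzip17. That scaling moved the median of all genes to -0.49 and -0.37, and psbI had log2 changes of 2.82 and 3.25. Counting non-overlap alone, 4 members were higher in all heated WT libraries and 2 lower, against 22.8 and 21.9% of all genes. In bzip17 19 were higher and 0 lower, against 22.1 and 21.0%. In both genotypes 4 of 111 members were higher, against 15.4% of all genes, and these were psbI, trnS (ATCG00090), trnG (ATCG00100) and trnR (ATCG00110).

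**Figure D3:**
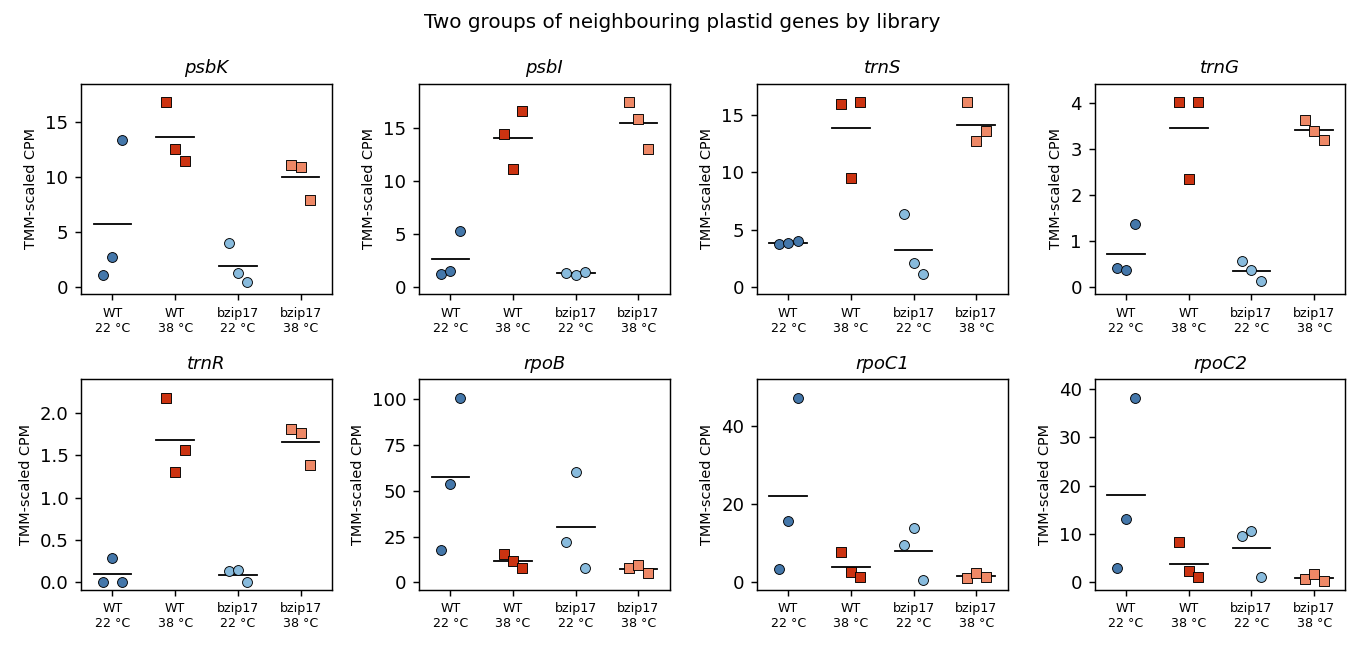
TMM-scaled CPM (y, linear) in each library for the neighbours psbK, psbI, trnS, trnG and trnR and for the operon rpoB, rpoC1 and rpoC2, by group (x); lines are means of 3 libraries. psbI lies between 11.2 and 17.5 CPM in the heated libraries and between 1.08 and 5.26 CPM in the controls, and rpoB reaches 101 CPM in replicate 3 of WT at 22 °C.

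Among the genes of the polymerase only rpoB was called, and it fell. rpoB, rpoC1 and rpoC2 lie head to tail on the minus strand at 26329 to 15938, in the order of transcription, and rpoA lies apart from them in a ribosomal protein operon. rpoB encodes the beta subunit of the plastid RNA polymerase. It stood at 17.7, 53.5 and 101 CPM in WT at 22 °C and at 15.6, 11.6 and 7.99 CPM at 38 °C, and in bzip17 at 22.1, 60.5 and 7.75 CPM against 7.69, 9.50 and 5.13 CPM. The WT groups did not overlap, but replicate 3 of bzip17 at 22 °C fell among the heated libraries. The log2 change was -2.28 ± 0.70 (SE, n = 3) in WT (edgeR's quasi-likelihood test, adjusted p = 0.0320) and -2.01 ± 0.69 in bzip17 (adjusted p = 0.0493).

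rpoC1 and rpoC2, which encode the beta prime and beta double prime subunits, did not pass the test. The log2 change of rpoC1 was -2.50 ± 1.04 in WT and -2.27 ± 1.04 in bzip17, and that of rpoC2 was -2.20 ± 1.06 and -2.92 ± 1.1 (SE, n = 3). Their adjusted p in edgeR's quasi-likelihood test was 0.0933 and 0.127 for rpoC1 and 0.143 and 0.0699 for rpoC2. With the rRNA share as a covariate rpoC2 was called down in bzip17, at -2.37. rpoA, for the alpha subunit, changed by -0.56 ± 0.79 and 0.04 ± 0.78 and was called in neither genotype. Together the 3 operon genes took 12.5, 16.7 and 4.34% of member counts in WT at 22 °C and 1.85, 3.66 and 2.53% at 38 °C, and 3.16, 23.7 and 6.93% against 2.64, 3.5 and 2.24% in bzip17. Their share was lower in all 3 heated WT libraries than in the controls, whereas in bzip17 the ranges met between 3.16 and 3.5%.

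The call of rpoB also depended on the libraries and settings. Leaving out 1 library ended it in 5 of 12 fits for WT, with adjusted p up to 0.117, and in 9 of 12 for bzip17, with adjusted p up to 0.265. Its log2 change in WT was -1.50 with the rRNA share as a covariate and -0.85 without the 4 libraries over 10% rRNA, and it was called in neither. In bzip17 it was -1.84 and called with that covariate, and -2.16 and not called without those libraries. The sign was negative in all of these fits.

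Most genes for the photosynthetic complexes varied more between libraries of 1 group than between temperatures. psbA encodes the D1 protein of the photosystem II reaction centre. It stood at 13.4, 39.9 and 659 CPM in WT at 22 °C and at 397, 47.7 and 40.3 CPM at 38 °C, and in bzip17 at 252, 22.7 and 17 CPM against 33.3, 35.6 and 36.7 CPM. The values of 659, 397 and 252 CPM belonged to libraries over 10% rRNA. Its log2 change was -0.55 ± 1.34 in WT and -1.47 ± 1.36 in bzip17 (SE, n = 3), with adjusted p = 0.792 and 0.466 in edgeR's quasi-likelihood test. The sign in WT turned with the rRNA share as a covariate (2.0, adjusted p = 0.00612) and without the 4 libraries over 10% rRNA (1.72, adjusted p = 0.0263), so no direction is given for psbA.

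rbcL, the large subunit of the carbon-fixing enzyme rubisco, showed the same spread. It stood at 20.7, 70.6 and 1144 CPM in WT at 22 °C, at 304, 37.6 and 29.3 CPM in WT at 38 °C, at 292, 35.1 and 23.6 CPM in bzip17 at 22 °C and at 24.8, 25.7 and 22.9 CPM in bzip17 at 38 °C. The log2 change was -1.73 ± 1.35 in WT and -2.25 ± 1.38 in bzip17 (SE, n = 3), neither called (edgeR's quasi-likelihood test, adjusted p = 0.368 and 0.253). With the rRNA covariate the WT value was 0.84. psaA and psaB, the core proteins of photosystem I, had log2 changes of -1.62 and -1.85 in WT and of -2.12 and -2.38 in bzip17, and none of these was called. psbB, psbC and psbD, which encode photosystem II core proteins, had -0.97, -0.88 and -0.69 in WT and -0.37, -1.74 and -2.02 in bzip17, likewise not called. With the rRNA covariate psbC and psbD were called up in WT.

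By class, calls fell into photosystem II (psbI, and psbM in bzip17), tRNA genes (trnS, trnG and trnR) and the polymerase (rpoB). None of the 6 ATP synthase, 11 NDH, 6 cytochrome b6f, 5 photosystem I, 25 ribosomal protein and 10 other genes, nor rbcL, was called in either genotype by edgeR's quasi-likelihood test. This holds for the fit without a covariate. With the rRNA covariate, atpA, atpF, atpI, petB, petD, ndhG, rpl33, matK, ycf4, ycf1 (ATCG01000) and ycf2 (ATCG01280) were called up in WT. In bzip17 atpI, petN, ndhJ, ndhC, ndhE, ycf4, rpl33, ycf1 (ATCG01000) and rps12 (ATCG01230) were. That fit called 11.4 and 12.3% of all genes. At an unadjusted p under 0.05 without the covariate, these classes held 1 gene in WT, a ribosomal protein gene. In bzip17 they held 3, 1 each of NDH, ribosomal proteins and other functions. Of all genes 39.7% in WT and 38.7% in bzip17 lay under that limit. DESeq2 called 1 in WT (rpl16, down) and 2 in bzip17 (ndhC and the ycf1 row ATCG01000, up). It called 14.8 and 13.9% of all genes. The median log2 change of all 111 members was -0.62 in WT and -0.30 in bzip17, against 0.02 and -0.05 over all genes. Members with a positive change numbered 30 in WT and 43 in bzip17. These medians changed sign with the rRNA share as a covariate (1.09 and 0.76) and without the 4 libraries over 10% rRNA (1.26 and 0.92).

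Changes and calls given next are those of the fit without the rRNA covariate. The class medians under heat lay lowest for the polymerase, at -2.24 in WT and -2.14 in bzip17, and for rbcL. They were -0.34 and -0.04 for ATP synthase, -0.25 and -0.35 for NDH, 0.02 and 0.03 for cytochrome b6f, -0.92 and -0.27 for ribosomal proteins and -0.33 and -0.18 for tRNA genes. atpI, a membrane subunit of ATP synthase, had log2 changes of 0.29 ± 0.86 and 1.19 ± 0.87, and ndhC, a subunit of the NDH complex, 0.03 ± 0.52 and 1.49 ± 0.53 (SE, n = 3). rpl16, a protein of the large ribosomal subunit, was lower in all heated WT libraries (5.32, 2.38 and 4.17 CPM against 7.24, 6.40 and 27.6 CPM) and missed the threshold, at -1.78 ± 0.63 (edgeR's quasi-likelihood test, adjusted p = 0.0538). The ycf1 row ATCG01000 had 2.56 ± 0.93 in bzip17 (adjusted p = 0.0612), and it overlaps ndhF, so its reads cannot be assigned with certainty. clpP, a protease subunit, matK, a splicing factor, and accD, a subunit of the enzyme that starts fatty acid synthesis, had -1.0, -0.35 and -0.99 in WT and -0.26, -0.50 and -0.78 in bzip17, and were not called. The genes that lead the levels of their classes were not called either: psaJ, a small photosystem I subunit, had 0.44 and 0.76, rpl32 and rpl33 of the large ribosomal subunit 0.37 and 0.28 and 0.71 and 0.94, and petN and petB of the cytochrome b6f complex 0.12 and 1.33 and -0.55 and -0.68. atpH and atpE of ATP synthase had -0.92 and -1.29 and -0.01 and 0.14, atpB, its catalytic beta subunit, -0.84 and -0.13, and ndhD -0.29 and -0.35. rps12 (ATCG00065), a protein of the small ribosomal subunit, had -1.59 and -2.77, and its row ATCG01230 in the repeat 0.84 and 4.06. That row held 3, 1 and 1 counts in the bzip17 controls and 99, 3 and 32 in heated bzip17. ndhB (ATCG00890) and the ycf2 rows have a second copy in the inverted repeat and are left without a direction, at 0.20 and -1.42 for ndhB (ATCG00890), -1.54 and -1.39 for ycf2 (ATCG00860) and -0.65 and -0.30 for ycf2 (ATCG01280). The ycf1 row ATCG01130 had -0.79 and -0.23.

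The labels do not say whether libraries of the same replicate number were paired. A fit of the bzip17 libraries with the replicate number as a block was added after the data were seen. It called 10 members, 8 up and 2 down, in place of 6, or 9.01% of members against 11.9% of all genes. psbK, atpI and ycf1 (ATCG01000) were added among those that rose and rpoC2 among those that fell.

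The make-up of the plastid counts was compared as shares of the member counts. The mean share of ATP synthase genes was 7.40% at 22 °C and 12.2% at 38 °C, that of NDH genes 3.16 and 4.87%, that of cytochrome b6f genes 1.87 and 2.42% and that of tRNA genes 2.59 and 5.83% (6 libraries each). Polymerase genes went from 12.1 ± 8.30 to 3.84 ± 0.777% (SD), rbcL from 16.8 ± 6.66 to 9.03 ± 4.34% and photosystem I from 10.8 ± 2.01 to 7.08 ± 1.20%. The ranges of the polymerase share at 22 °C (3.72 to 24.96%) and at 38 °C (2.50 to 4.60%) met. In bzip17 the tRNA share was 1.73 to 2.67% at 22 °C and 6.11 to 7.83% at 38 °C, without overlap, while in WT the ranges overlapped (1.69 to 3.97% and 2.26 to 6.97%). Within the bzip17 share, trnS (ATCG00090) alone took 0.485, 0.589 and 0.780% of member counts at 22 °C and 4.44, 3.25 and 4.51% at 38 °C. The called trnG (ATCG00100) took 1.00, 0.867 and 1.06% at 38 °C. The shift was thus largely that of tRNA genes already called. Seen over all classes, 7 of 10 had a higher mean share at 38 °C, but only 4 with shares of summed FPKM, and no test is given because each share is a sum over the members.

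**Figure D4:**
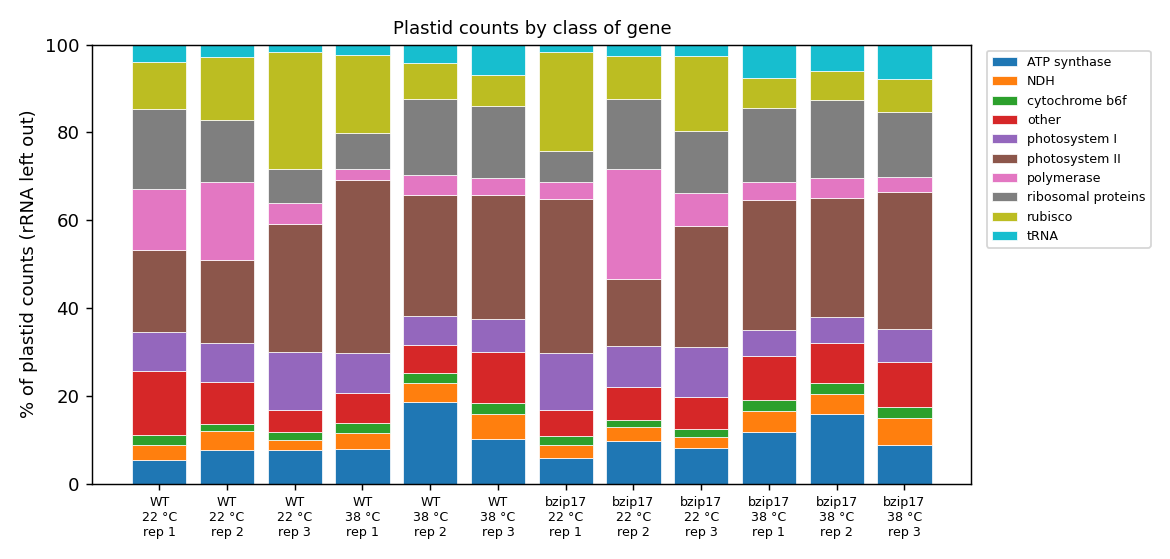
Stacked bars of the share of member counts held by each of the 10 classes (y, %), 1 bar per library in the order of the groups (x), with no averaging. The polymerase share reaches 24.96% in 1 control library and stays between 2.50 and 4.60% in the 6 heated ones.

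The bZIP17 mutation was compared with WT at each temperature. No member was called at 22 °C or at 38 °C, where 0.00965 and 0.0145% of all genes were called (edgeR's quasi-likelihood test, adjusted p under 0.05 and more than 2-fold). At an unadjusted p under 0.05 there were 10 members at 22 °C and 1 at 38 °C, or 9.01 and 0.901% of members against 9.79 and 4.43% of all genes. DESeq2 called 1 and 0 members, against 67 and 37 of all genes. The interaction of genotype and heat called 0 members and 0.0% of all genes. At an unadjusted p under 0.05 it had 1 member (0.901%), against 4.32% of all genes. DESeq2 called 0 members for the interaction, against 0.029% of all genes. On the log2 scale the median of the members was -1.41 at 22 °C and -0.88 at 38 °C, with 4 and 6 of 111 higher in bzip17, where all genes had 0.02 and -0.00. The rRNA share was also lower in bzip17, with group means of 8.43 against 27.9% at 22 °C and 3.00 against 8.46% at 38 °C. With the rRNA share as a covariate the medians were 0.31 and -0.04, with 79 and 48 members higher. Without the 4 libraries over 10% rRNA they were 0.11 and -0.29, with 64 and 36 higher. Leaving out replicate 3 of WT at 22 °C alone gave 0.46 at 22 °C, with 73 higher, and leaving out replicate 1 of WT at 38 °C gave -0.29 at 38 °C, with 36 higher. No direction is therefore given for the members by genotype. The summed green-tissue markers were higher in bzip17 at 22 °C (12930 to 18000 CPM) than in WT (9350 to 11900 CPM), and overlapped at 38 °C (12000 to 15830 and 11020 to 15050 CPM).

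psbM, a small subunit of photosystem II that lies on the minus strand at 28707 to 28811 and whose sequence is shown with that of psbI, was the member DESeq2 called (down in bzip17 at 22 °C, DESeq2 adjusted p = 0.000693). Its level was 1.40, 2.20 and 5.06 CPM in WT and 0.457, 0.579 and 0.318 CPM in bzip17 at 22 °C. At 38 °C it was 3.86, 2.03 and 2.52 CPM in WT and 1.86, 2.44 and 1.76 CPM in bzip17. The genotypes did not overlap at 22 °C and overlapped at 38 °C. The genotype difference at 22 °C was -2.65 ± 0.53 (SE, n = 3), with edgeR's quasi-likelihood adjusted p = 0.264. Heat raised psbM in bzip17 by 2.16 ± 0.51 (adjusted p = 0.00947), and this call was kept in all 12 fits that left out 1 library. It was lost in 3 of 11 other settings, those scaled to the plastid total. The log2 change ran from 1.56 to 2.31 over the 11 settings, and the bzip17 controls held only 17, 28 and 22 counts. In WT the change was -0.02 ± 0.49 (adjusted p = 0.982). The interaction was 2.18 ± 0.70 and was not called, so the heat effects were not shown to differ.

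ndhC had 1.89, 2.13 and 3.18 CPM in WT and 1.1, 0.724 and 0.231 CPM in bzip17 at 22 °C, a difference of -1.81 ± 0.54 (SE, n = 3; edgeR's quasi-likelihood test, adjusted p = 0.421). rps15, a protein of the small ribosomal subunit, differed by -2.89 ± 1.02 at 22 °C and -2.80 ± 1.04 at 38 °C (adjusted p = 0.453 and 1.00), at levels of at most 2.73 CPM. At 38 °C the next smallest unadjusted p values were those of rps12 (ATCG00065), at -2.62 ± 1.34, and psbD, at -2.54 ± 1.31. For the interaction, ndhC (1.46 ± 0.74) and trnH, a histidine tRNA gene (2.04 ± 1.06), followed psbM.

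The plastid rRNA counts, which the rule leaves out, were set against the member counts of each library. For each member count there were 68.0, 116 and 119 plastid rRNA counts in WT at 22 °C and 34.7, 13.6 and 13.5 in WT at 38 °C. In bzip17 there were 59.0, 33.0 and 28.2 at 22 °C and 15, 15.6 and 22.5 at 38 °C. The ratio was lower in every heated library than in every control library of the same genotype. In each group except heated bzip17 it also rose with the rRNA share of the library. In WT at 22 °C it went from 68.0 at 3.76% rRNA to 119 at 64.8%, and in bzip17 at 22 °C from 28.2 at 1.43% to 59.0 at 20.7%. The cause was not tested. Mitochondrial genes offer a comparison, with 0.0523, 0.129 and 0.444% of counts outside rRNA in WT at 22 °C against 0.981, 1.1 and 0.627% at 38 °C, and 0.101, 0.0603 and 0.0128% against 0.870, 1.13 and 0.548% in bzip17. Their temperatures were apart in each genotype, whereas those of the plastid share overlapped.

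**Figure D5:**
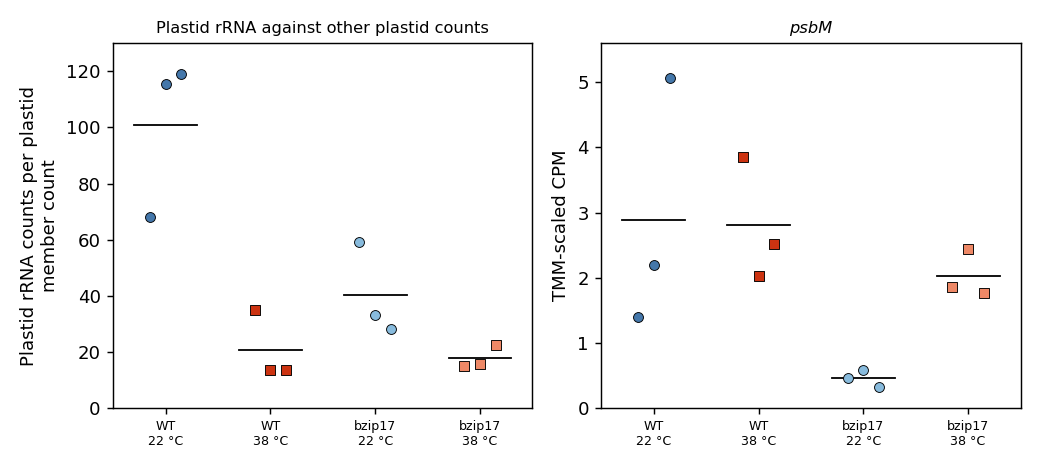
Left, plastid rRNA counts per member count (y) and right, TMM-scaled CPM of psbM (y), in each library by group (x); lines are means of 3 libraries. The rRNA ratio lies between 28.2 and 119 at 22 °C and between 13.5 and 34.7 at 38 °C, and psbM is lowest in bzip17 at 22 °C.

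Plastid transcription depends on nuclear genes, and 30 of these for plastid polymerases, sigma factors and RNA processing were tested. In WT 1 was called up under heat and none down, where 12.8% of all genes were called. In bzip17 none was called up and 1 down, where 12.5% of all genes were called. At adjusted p under 0.05 in edgeR's quasi-likelihood test, without the 2-fold limit, there were 4 in WT and 10 in bzip17. The share of all genes at that limit was not counted, so these counts are not read as a result about the list or the genotypes. At the looser limit of an unadjusted p under 0.05, 39.7% of all genes passed in WT and 38.7% in bzip17. RPOTp, a phage-type plastid polymerase, had 81.9, 68.4 and 54.2 CPM in the WT controls and 151, 145 and 123 CPM in heated WT, a log2 change of 1.03 ± 0.22 (SE, n = 3; edgeR's quasi-likelihood test, adjusted p = 0.00540). In bzip17 it changed by 0.76 ± 0.21, under the 2-fold limit. CP29A, an RNA-binding protein of the plastid, changed by -1.08 ± 0.24 in bzip17 (adjusted p = 0.00616) and by -0.47 ± 0.23 in WT. The median of the list was 0.02 in WT and -0.23 in bzip17.

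Levels of different genes were compared per length, as FPKM. trnS (ATCG00090) led with a mean of 103 FPKM over the 12 libraries (14.2 to 205), followed by psbA at 91.7 (14.2 to 366), psbI at 78.4 (9.77 to 174) and rbcL at 75.2 (16.2 to 311). psaJ at 48.5, psbK at 40.2 and rpl32 at 39.3 came next. The ranges of all of these neighbours overlapped, so their order was not resolved. The medians of psbA and rbcL, 37.4 and 24.0 FPKM, were far under their means. FPKM of genes shorter than a sequenced fragment, such as trnS at 88 bases and psbI at 111 bases, are uncertain.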

How the data were processed

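Total RNA of unopened floral buds was sequenced for 12 libraries. The submitters' processing notes name cutadapt, HISAT2, StringTie and the TAIR10 build; the sources used here do not state the library selection, strand or counting program. The deposited table holds raw read counts per gene and FPKM values, both made by the authors. FPKM chose the members (at least 1 in 3 or more libraries) and gave levels between genes.

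Counts were fitted with edgeR 4.0.16 (limma 3.58.1, R 4.3.3; quasi-likelihood test, TMM scaling, 4 group means, all 12 libraries) over 20715 genes, with Benjamini-Hochberg adjustment over all of them. A gene was called at adjusted p under 0.05 and more than 2-fold; the interaction at adjusted p under 0.05. The standard error is the log2 change over the square root of F. DESeq2 1.42.0 was an alternative. The text names every called member, the 2 members of highest mean FPKM in each class, the 3 of smallest p in each comparison and 16 well-known genes; psbK, rpoC1, rpoC2, psbB, psbC, atpI and rpl16 were added after their values were seen. Library totals ran from 38.6 to 71.8 M counts. On data simulated for heat in WT, 88 of 91 genes changed by 2.0 on the log2 scale and 53 of 109 changed by 1.0 passed. The simulation gave all genes the same replicate spread and counted a pass at adjusted p under 0.05 without the 2-fold limit. It therefore does not tell how often changed members would be called, because their replicates differed more widely. Class shares, the plastid share, the rRNA ratio and the relation of shares are sums over members and carry no p. The members and all lists were chosen with earlier results of these data known. P-values measure the spread between these pooled replicates. Replicates differed by far more than sampling noise (chi-square per degree of freedom 78.5 to 2089).

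Same-numbered bzip17 libraries at 22 and 38 °C deviated weakly together (correlations 0.148, 0.185 and 0.219), and the other group pairs did not all exceed 0.1. Higher values were seen for replicate 2 of WT at 38 °C, with bzip17 at 22 °C (0.393) and with bzip17 at 38 °C (0.242). Libraries of different number were not compared, so a pairing was not shown. Gene positions and sequences are from RefSeq (TAIR10.1), where 122 of 133 plastid rows matched at both ends and 5 at one end.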

Additional observations from a re-analysis of the deposited data

How the results depend on the processing

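The number of plastid-encoded genes called under heat in WT (5, or 4.5%, against 12.8% of all genes) depended on the fit. It was 8 with DESeq2 (7.21% against 14.8%) and 0 scaled to the plastid total (against 0.367%). With the rRNA share as a covariate it was 23 (20.7% against 11.4%). With both it was 11, or 9.91% of members against 59.2% of all genes. Leaving out 1 library gave 2 to 9, with 3 without replicate 2 and 9 without replicate 3 of WT at 22 °C, and 3 and 2 without replicates 1 and 3 of WT at 38 °C. Of all genes 9.72 to 13.5% were called in these fits. In bzip17 6 were called (5.41%, against 12.5% of all genes). DESeq2 called 10 there (9.01% against 13.9%), and scaling to the plastid total called 0 (against 1.05%). With the covariate it was 17 (15.3% against 12.3%). Leaving out 1 library gave 4 to 9 in bzip17, with 9.98 to 12.6% of all genes called. For the genotype at 22 °C DESeq2 called 1 in place of 0, or 0.901% of members against 0.323% of all genes. Classes with a higher share numbered 4 by summed FPKM in place of 7, for heat and for genotype alike, and for genotype 3 to 8 without 1 library. The relation of plastid and rRNA shares gave r = 0.820 without the 2 farthest libraries.

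psbM in WT changed by 0.67 with library totals, 0.0027 scaled to the plastid total, 0.53 with the covariate, 0.028 with the replicate block, 0.70 without the libraries over 10% rRNA and -0.36 to 0.63 without 1 library. psbA in WT changed by 0.67 with library totals, 0.52 scaled to the plastid total, 2.0 with the covariate, 1.72 without the libraries over 10% rRNA, 0.92 and 0.56 with these last combined with the plastid total, and -2.44 to 2.59 without 1 library. rbcL in WT changed by 0.84, 0.69 and -3.63 to 1.42 under the covariate, without those libraries and without 1 library. psbA in bzip17 changed by 0.31, 0.85, 0.12 (plastid total without those libraries) and -1.97 to 0.83. The cause was not tested.

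With the replicate block over all 12 libraries 5 members were called in WT and 5 in bzip17, against 12.7 and 12.5% of all genes. With the block among the bzip17 libraries 10 were called there, against 11.9% of all genes. The combined and the bzip17-only fits were chosen after seeing the data. Low counts limit trnR and rps15, among others. In bzip17 at 22 °C rps12 (ATCG01230) had 3, 1 and 1 counts, trnH 8, 5 and 4, and trnG (ATCG00100) 21, 18 and 8.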
